A study of Mus musculus with 8 samples.

Results

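The Wnt pathway genes described here were 57 genes that code for Wnt ligands, their secretion, their receptors and inhibitors, and the proteins that carry the signal to the nucleus. They were chosen by symbol, with a pattern that matched 65 symbols, and kept when at least 10 reads were counted in at least 4 of the 8 libraries. The exonic count table held 55471 genes, of which 19415 met the same minimum. The 8 matching symbols below the minimum were Wnt1, Wnt3a, Wnt8a, Wnt8b, Wnt16, Dkk1, Dkk4 and Rspo4. Grouped by symbol, the 57 comprised 14 ligands, 2 secretion factors, 12 receptors, 7 secreted inhibitors, 8 genes of the R-spondin axis, 3 Dishevelled genes, 6 genes of the destruction complex and 5 genes for beta-catenin and its DNA-binding partners.

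Polyadenylated nuclear RNA was sequenced from forebrain excitatory neuronal nuclei of male C57BL/6J mice aged 6 to 8 weeks with the genotype CaMKIIalpha-Cre:SUN1-sfGFP. In these mice a Cre recombinase driven by the CaMKIIalpha promoter turns on a green fluorescent nuclear envelope protein, and antibodies to it pull the tagged nuclei out of the tissue (the INTACT method). All mice first received scopolamine methyl nitrate at 1 mg/kg, which limits the effects of pilocarpine outside the brain, and 30 min later either saline (Mock, 4 libraries) or pilocarpine hydrochloride at 340 mg/kg (Pilo, 4 libraries). The time after this injection was 100 min in both groups, in which Pilo mice were left to develop seizures. Pilo mice were kept when their seizure score fell between 3 and 5 on the Racine scale, a selection that was not applied to Mock mice. The drug and the seizure therefore cannot be told apart. No label states whether libraries of a group came from different mice. The p-values therefore reflect the scatter among these libraries, some of which may be technical.

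Wnt proteins are secreted ligands, made competent for release by Porcupine (Porcn) and carried to the cell surface by Wntless (Wls). They bind Frizzled receptors and the co-receptors Lrp5 and Lrp6, Dishevelled is recruited, and the destruction complex of Axin, Apc and Gsk3 stops marking beta-catenin (Ctnnb1) for degradation, so that beta-catenin enters the nucleus and binds TCF/LEF factors. In neurons the pathway is known for its part in synapse formation and plasticity, and beta-catenin also links cadherins to the cytoskeleton at synapses.

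Total exonic counts per library ran from 29356788 to 36161448. A second table gave exonic and intronic counts apart, with 27135364 to 33715773 exonic and 11928054 to 16703475 intronic counts per library, and held 51 of the 57 genes; Fzd1, Fzd2, Fzd7, Fzd8, Fzd9 and Fzd10 were not among its genes. Its columns numbered 2 and 3 matched the exonic table's columns numbered 3 and 2 in both groups, so intronic values carry the second table's numbers and exonic values those of the first unless stated. Summed markers of excitatory neurons stood at 2308 to 2942 CPM (counts scaled to library size) in Mock and 2598 to 3153 CPM in Pilo libraries, against 119.9 to 156 and 156 to 244 CPM for inhibitory neurons, and no marker on any list was at 0 in all libraries. Pilo library 3 stood apart: its summed endothelial and mural markers were at 85.8 CPM, against 16.7 to 35.3 CPM in the other 7 libraries, and its choroid plexus and ependymal markers at 111 CPM, against 34.4 to 67.8 CPM.

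Levels were compared between genes as exonic CPM divided by the annotated exon length in kb. In Mock libraries the highest mean levels were those of Dvl1, a Dishevelled gene, at 58.9 CPM per kb, of Porcn at 56.05 CPM per kb and of Dkk3, a divergent member of the Dickkopf family, at 50.2 CPM per kb. The ranges of Dvl1 and Porcn overlapped. Next came Gsk3a at 32.3, Ctnnb1 at 29.3 and Apc at 24.8 CPM per kb. The lowest were Wnt9b at 0.0883 and Wnt11 at 0.107 CPM per kb. Among ligands Wnt9a was highest in Mock at 6.39 CPM per kb, followed by Wnt4 at 4.56 CPM per kb, with overlapping ranges. In Pilo Wnt4 was highest at 6.91 CPM per kb, above the range of Wnt9a at 3.93 CPM per kb, which overlapped that of Wnt10b at 3.57 CPM per kb. Among receptors Lrp6 at 7.93 and Fzd3 at 7.19 CPM per kb in Mock stood well above the next receptor, Fzd1 at 1.62 CPM per kb.

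**Figure D1:**
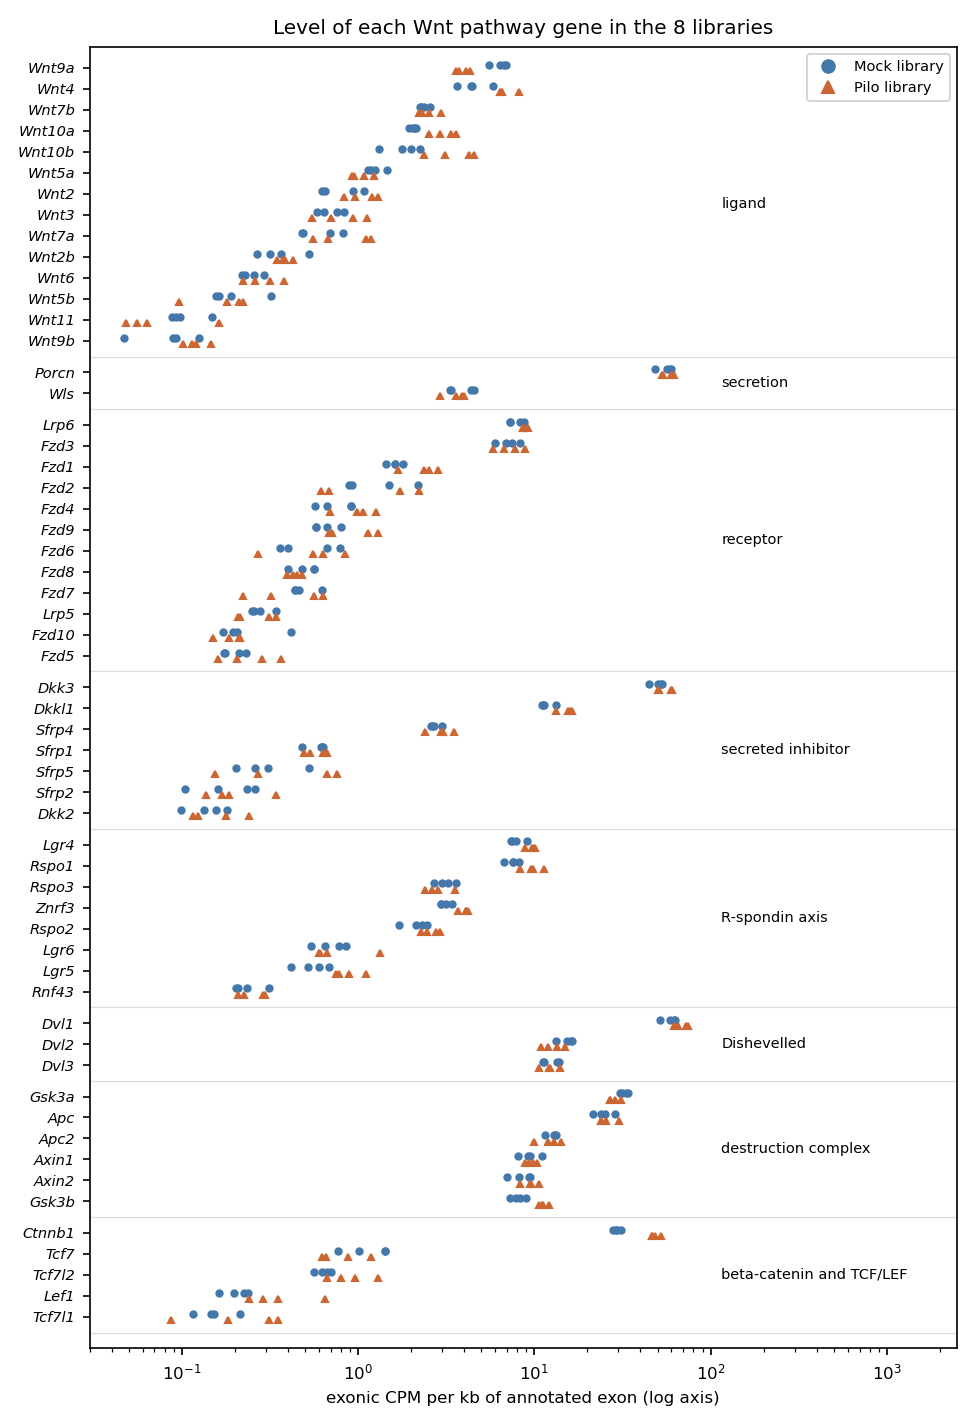
Exonic CPM per kb of annotated exon (log axis) for each of the 57 genes, ordered by role and by level; each circle is a Mock library and each triangle a Pilo library. Intracellular components lie mostly to the right of ligands and receptors, and all 4 Pilo libraries lie to the left of the Mock libraries for Wnt9a and to the right for Ctnnb1, Gsk3b and Wnt10b.

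In exonic reads, 13 of the 57 genes rose in Pilo, 1 fell and 43 did not pass the test (edgeR's quasi-likelihood test, Benjamini-Hochberg adjusted p under 0.05 over all genes). The genes that rose were Wnt4, Wnt10a, Wnt10b, Fzd1, Dkkl1, Lgr4, Lgr5, Rspo1, Znrf3, Gsk3b, Ctnnb1, Lef1 and Tcf7l2, and the gene that fell was Wnt9a. The background was large: 31.8% of the 19176 genes tested passed in either direction, 15.6% as higher and 16.2% as lower. Of the 57 genes 22.8% were higher and 1.75% lower, 24.6% in all. All changes are log2 fold changes of Pilo against Mock, given with the SE of the fit over 4 libraries per group. The median change of the 57 was 0.15, against 0.00 over all genes tested, and 40 of the 57 values were above 0. The 51 marker genes of all cell types, each counted once, had a median change of 0.34, with 10 higher and 0 lower. The higher ones included 4 of 7 excitatory genes (Slc17a6, Neurod6, Tbr1 and Neurod2) and 2 of 7 inhibitory genes (Gad1 at 0.46 and Gad2 at 0.43). The part of this shift in the values of the Wnt pathway genes was not tested. Fewer nuclei of one kind and less RNA per nucleus cannot be told apart in such bulk libraries. With replicate numbers as a block, 21 of the 57 were higher and 3 lower, at a background of 47.0% in either direction, 23.8% higher and 23.2% lower, with Axin2, Dkk3, Dvl1, Fzd4, Fzd9, Lrp6, Rspo2 and Wnt7a added to the higher and Dvl2 and Gsk3a to the lower genes.

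**Figure D2:**
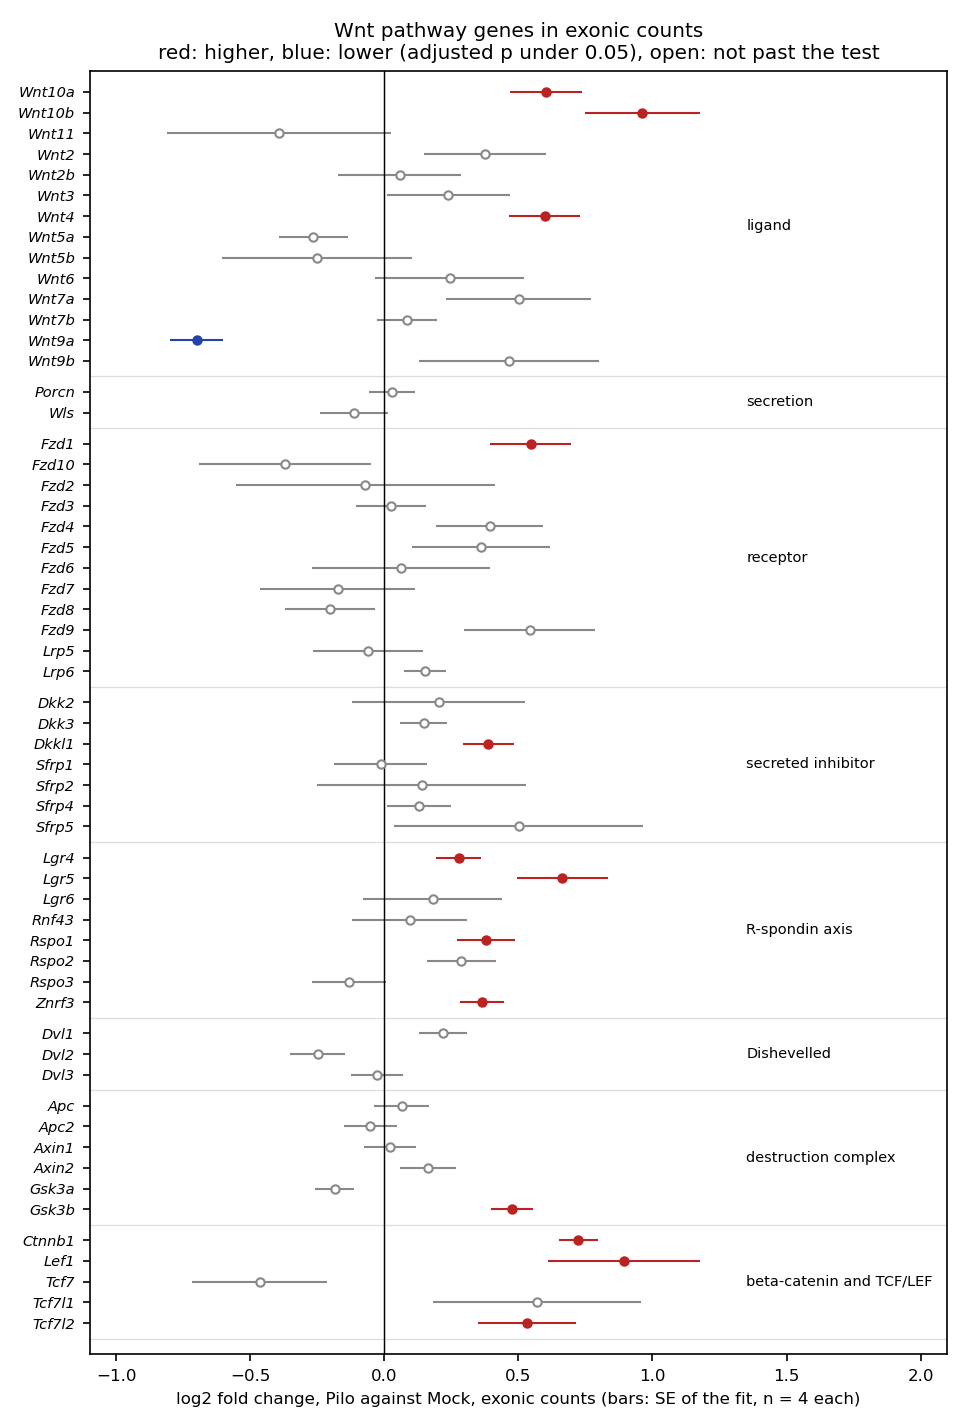
Exonic log2 fold change of each of the 57 genes, Pilo against Mock, with bars of 1 SE, ordered by role. Ctnnb1 lies at 0.72 with a narrow bar and Wnt9a at -0.70, while several of the wide bars belong to low-count ligands and receptors.

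For Wnt10b, Wnt9a, Ctnnb1 and Tcf7l2 the DNA before the start site is shown, as these genes carry the largest ligand changes, the most precise change and a change that depends on single libraries. The windows are the 250 bases upstream of RefSeq starts on GRCm38.p6, written 5′ to 3′ on the gene's strand. Capitals mark TGACG or its reverse complement CGTCA, the shared core of cAMP response elements, sites known to be bound by CREB. The 4 windows are at chr15:98778151-98778400 (minus strand), chr11:59306680-59306929, chr9:120933150-120933399 and chr19:55741560-55741809 (plus strand).
Wnt10b: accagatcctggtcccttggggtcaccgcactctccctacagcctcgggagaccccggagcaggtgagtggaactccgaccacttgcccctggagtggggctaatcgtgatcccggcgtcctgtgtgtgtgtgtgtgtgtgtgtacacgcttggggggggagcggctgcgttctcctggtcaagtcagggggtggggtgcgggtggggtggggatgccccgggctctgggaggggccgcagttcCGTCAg
Wnt9a: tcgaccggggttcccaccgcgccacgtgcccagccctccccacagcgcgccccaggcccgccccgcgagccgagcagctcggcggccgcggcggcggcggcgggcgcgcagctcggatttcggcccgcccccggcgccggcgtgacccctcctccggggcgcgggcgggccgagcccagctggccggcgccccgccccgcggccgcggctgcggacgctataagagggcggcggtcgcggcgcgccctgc
Ctnnb1: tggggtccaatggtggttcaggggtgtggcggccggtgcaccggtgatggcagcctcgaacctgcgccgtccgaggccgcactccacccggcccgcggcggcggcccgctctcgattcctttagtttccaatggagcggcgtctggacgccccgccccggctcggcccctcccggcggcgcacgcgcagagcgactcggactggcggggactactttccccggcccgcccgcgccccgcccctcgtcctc
Tcf7l2: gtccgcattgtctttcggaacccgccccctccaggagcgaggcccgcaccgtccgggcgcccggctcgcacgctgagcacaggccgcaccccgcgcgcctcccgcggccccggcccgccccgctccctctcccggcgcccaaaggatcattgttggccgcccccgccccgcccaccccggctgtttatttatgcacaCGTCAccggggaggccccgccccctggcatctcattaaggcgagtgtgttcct
The letters stood 6 bases upstream of the Wnt10b start and 53 bases upstream of the Tcf7l2 start, and neither the Wnt9a nor this Ctnnb1 window held them. A second Ctnnb1 window, ending further downstream, held them 67 bases before its start, and a second Tcf7l2 window did not. Searched on both strands in the 51 windows of 38 of the 57 genes, TGACG occurred in 7 windows of 6 genes, against 17.8% of all 32851 windows. Of the 14 genes that changed in exonic reads, 11 had a window and 3 of those held TGACG. The full element TGACGTCA, which contains TGACG, was in none of the 51 windows and in 1.55% of all. The TCF/LEF letters CTTTGAA (4.46% of all windows) occurred before Gsk3a, and CTTTGAT (3.21%) before Wnt11 and Wnt5b. The AP-1 letters TGANTCA (6.75%) occurred before Dvl2 and Wnt5b. These matches describe the letters and show no binding.

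Among the ligands 3 rose and 1 fell in exonic reads. Wnt10b (ENSMUSG00000022996, chr15:98770712-98778150, GRCm38), a ligand known to act through beta-catenin, stood at 6.07, 7.66, 4.501 and 6.77 CPM in Mock libraries 1 to 4 and at 15.4, 14.5, 8.03 and 10.6 CPM in Pilo libraries 1 to 4. Every Pilo library was above every Mock library, with the smallest gap at Pilo library 3. The log2 fold change was 0.96 ± 0.21 SE, adjusted p = 0.00479. Wnt10a (ENSMUSG00000026167, chr1:74791516-74804179), its close paralog, stood at 5.27, 5.09, 5.03 and 4.79 CPM in Mock and 8.85, 6.27, 8.29 and 7.23 CPM in Pilo libraries. Its Mock libraries lay close together and all 4 Pilo libraries were higher, with an exonic change of 0.60 ± 0.13 SE, adjusted p = 0.00390. Wnt4 (ENSMUSG00000036856, chr4:137277489-137299726), a ligand of several Wnt branches, stood at 15.2, 24.4, 18.7 and 18.2 CPM in Mock and 26.96, 34.3, 27.4 and 27.1 CPM in Pilo libraries. The groups did not overlap, and Pilo library 2 was the highest, with an exonic change of 0.60 ± 0.13 SE, adjusted p = 0.00409.

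Wnt9a (ENSMUSG00000000126, chr11:59306928-59333552) was the 1 gene of the 57 that fell in exonic reads with all 8 libraries, TMM scaling and no block. Other fits without the block called 1 more gene lower, either Dvl2 (no filter, or without Pilo 2) or Gsk3a (a minimum count of 50, the second table's exonic columns, or without Pilo 3). It stood at 22.3, 23.1, 18.5 and 21.2 CPM in Mock libraries and 12.4, 14.3, 12.02 and 13.6 CPM in Pilo libraries. The highest Pilo library was below the lowest Mock library, and the log2 fold change was -0.70 ± 0.10 SE, adjusted p = 0.000187. It fell in intronic reads too, from 22.9, 14.9, 20.1 and 20.2 CPM in Mock to 6.45, 7.62, 11.1 and 9.01 CPM in Pilo libraries, by more (intronic log2 fold change -1.19 ± 0.18 SE, adjusted p = 0.000124). The groups were again apart. Its exonic change was 0.47 above its intronic change on the log2 scale (adjusted p = 0.0167), a difference that did not pass without Mock 1 (adjusted p = 0.0553), Pilo 1 (0.0520) or Pilo 2 (0.0535) of the second table.

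The other 10 ligands did not pass the exonic test without the block. Their exonic log2 fold changes ran from -0.39 for Wnt11 to 0.50 for Wnt7a. The Wnt11 value rested on library 3 of each group, being -0.16 without Mock 3 and -0.94 without Pilo 3, and that of Wnt7a ran from 0.33 to 0.67 as each library was left out. Wnt7b, the third most abundant ligand per kb in Mock, stood at 10.9 to 12.5 CPM in Mock and 10.8 to 14.4 CPM in Pilo libraries, and Wnt5a, known for beta-catenin-independent signalling, at 8.89 to 11.5 and 7.21 to 9.65 CPM. Wnt5b, Wnt6, Wnt9b and Wnt11 stayed below 1 CPM in all 8 libraries, where few reads limit the precision.

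Of the secretion factors neither passed the exonic test. Porcn (ENSMUSG00000031169, chrX:8193848-8206525), the acyltransferase that lipidates Wnts, stood at 179.5, 171, 145 and 177 CPM in Mock and 162, 186, 159 and 178 CPM in Pilo libraries. The groups overlapped, with an exonic change of 0.03 ± 0.09 SE, adjusted p = 0.846. Wls (ENSMUSG00000028173, chr3:159839672-159938664), the carrier of lipidated Wnts, stood at 38.3, 29.2, 39.98 and 29.5 CPM in Mock and 31.7, 25.6, 35.1 and 34.2 CPM in Pilo libraries, also overlapping, with an exonic change of -0.11 ± 0.13 SE, adjusted p = 0.538. In introns Wls fell from 54.1, 67.4, 53.5 and 42.3 CPM in Mock to 36.7, 43.7, 29.9 and 35.03 CPM in Pilo libraries (intronic log2 fold change -0.58 ± 0.15 SE, adjusted p = 0.00499), with the highest Pilo library just above the lowest Mock library.

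Of the 12 receptors 1 rose. Fzd1 (ENSMUSG00000044674, chr5:4753839-4758035), a Frizzled receptor, stood at 6.77, 6.05, 6.79 and 7.51 CPM in Mock and 10.5, 7.08, 9.98 and 11.97 CPM in Pilo libraries. Pilo library 2 lay inside the Mock range and the other 3 above it, with an exonic change of 0.55 ± 0.15 SE, adjusted p = 0.0145. Without Pilo library 4 the call was lost (0.44, adjusted p = 0.0605). With the replicate block and all 8 libraries Fzd1 passed (0.53, adjusted p = 0.000481). The co-receptor Lrp6 (ENSMUSG00000030201, chr6:134446476-134566965) stood at 120.1, 99.95, 114 and 99.9 CPM in Mock and 127, 118, 119.5 and 118 CPM in Pilo libraries, with an exonic change of 0.15 ± 0.08 SE, adjusted p = 0.165. Its Mock library 1 reached the Pilo range, and it passed only with the replicate block (0.15, adjusted p = 0.0239). Its relative Lrp5 (ENSMUSG00000024913, chr19:3584828-3686564) had a lower level per kb (0.281 against 7.93 CPM per kb in Mock), at 2.49, 2.44, 2.72 and 3.32 CPM in Mock and 2.08, 2.02, 3.06 and 3.35 CPM in Pilo libraries, with overlapping groups and an exonic change of -0.06 ± 0.20 SE, adjusted p = 0.856. The other 9 Frizzled genes had exonic log2 fold changes from -0.37 for Fzd10 to 0.54 for Fzd9, and Fzd4 and Fzd9 passed with the block (adjusted p = 0.0173 and 0.0345), Fzd4 also without Pilo 2 (0.0461). The Fzd10 value rested on Mock library 1, at 1.36 CPM against 0.559 to 0.673 CPM in the other Mock libraries, and was 0.01 without it. The Fzd9 value ran from 0.36 to 0.67 as each library was left out.

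Of the 7 genes grouped by symbol (Dkk and Sfrp) as secreted inhibitors 1 rose. Dkkl1 (ENSMUSG00000030792, chr7:45207519-45212147), a Dickkopf-like gene, stood at 17.3, 20.8, 17.9 and 17.7 CPM in Mock and 25.1, 25.7, 21.04 and 24.5 CPM in Pilo libraries. Pilo library 3 was only just above the highest Mock library, and the log2 fold change was 0.39 ± 0.10 SE, adjusted p = 0.00713. Its introns rose too, from 25.3, 27.03, 30.5 and 25.7 CPM in Mock to 39.1, 34.6, 38.8 and 39.1 CPM in Pilo libraries (intronic log2 fold change 0.48 ± 0.11 SE, adjusted p = 0.00297), with no overlap. Dkk3, the most abundant of the 7 per kb, stood at 149.5 to 179 CPM in Mock and 170.0 to 203 CPM in Pilo libraries and passed only with the block (0.14, adjusted p = 0.0424). The other 5 did not pass, with exonic log2 fold changes from -0.01 for Sfrp1 to 0.50 for Sfrp5, whose value ran from 0.17 to 0.83 as each library was left out.

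The R-spondin axis had 4 higher genes of 8. R-spondins are secreted proteins that, through Lgr receptors, hold back the ligases Znrf3 and Rnf43, which remove Frizzled receptors from the membrane. Rspo1 (ENSMUSG00000028871, chr4:124986430-125009099) stood at 13.04, 14.6, 14.8 and 15.9 CPM in Mock and 15.99, 18.6, 21.97 and 19.2 CPM in Pilo libraries. The lowest Pilo library was just above the highest Mock library, with an exonic change of 0.38 ± 0.11 SE, adjusted p = 0.0172. In the second table's exonic columns the groups overlapped, with Pilo 1 at 17.05 CPM below Mock 4 at 17.31 CPM. The change there was 0.35, adjusted p = 0.0251. The receptor Lgr5 (ENSMUSG00000020140, chr10:115450311-115587780) stood at 5.34, 6.15, 7.004 and 4.26 CPM in Mock and 7.74, 9.07, 11.4 and 7.96 CPM in Pilo libraries, with no overlap and an exonic change of 0.66 ± 0.17 SE, adjusted p = 0.00897. Pilo library 3 was its highest. Lgr4 (ENSMUSG00000050199, chr2:109917647-110014257), the most abundant of the 3 Lgr receptors per kb, stood at 53.4, 43.4, 46.1 and 44.02 CPM in Mock and 59.3, 51.9, 58.1 and 57.2 CPM in Pilo libraries. Pilo library 2 was below Mock library 1, with an exonic change of 0.28 ± 0.08 SE, adjusted p = 0.0211. The Lgr4 call was lost without Mock 2 (adjusted p = 0.0661), Mock 4 (0.0614) or Pilo 4 (0.0555). With the replicate block and all 8 libraries Lgr4 passed (0.28, adjusted p = 0.000728).

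Znrf3 (ENSMUSG00000041961, chr11:5276324-5444847), a ligase and itself a known beta-catenin target, stood at 25.1, 23.4, 23.2 and 26.9 CPM in Mock and 32.99, 32.4, 29.1 and 32.4 CPM in Pilo libraries. All 4 Pilo libraries were higher, with an exonic change of 0.36 ± 0.08 SE, adjusted p = 0.00411. Its introns showed no such rise, with 24.1, 21.1, 17.4 and 36.1 CPM in Mock and 21.7, 16.9, 17.6 and 23.8 CPM in Pilo libraries (intronic log2 fold change -0.30 ± 0.19 SE, adjusted p = 0.237). The exonic change was 0.61 above the intronic change (adjusted p = 0.0121). Rspo3 (ENSMUSG00000019880, chr10:29452416-29535867) did not pass in exons, at 10.1, 9.23, 11.1 and 8.38 CPM in Mock and 8.796, 7.44, 11 and 8.15 CPM in Pilo libraries, but fell in introns, from 16.9, 15.2, 11.1 and 11.8 CPM to 8.81, 11.6, 6.33 and 8.26 CPM (intronic log2 fold change -0.65 ± 0.19 SE, adjusted p = 0.0135), with Pilo library 2 inside the Mock range. Rspo2 (0.29, adjusted p = 0.105), Lgr6 (0.18, adjusted p = 0.645) and Rnf43 (0.09, adjusted p = 0.780) did not pass in exons.

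No Dishevelled gene passed the exonic test with all 8 libraries and no block. Dvl2 (ENSMUSG00000020888, chr11:70000595-70012301), an adaptor below Frizzled, stood at 96.5, 103, 83.5 and 101 CPM in Mock and 68.7, 94.5, 75.2 and 85.05 CPM in Pilo libraries, with overlapping groups. It had an exonic change of -0.25 ± 0.10 SE, adjusted p = 0.0804, and -0.25 (adjusted p = 0.00235) with the block, and passed without the block when no filter was used (-0.25, adjusted p = 0.0380) and without Pilo 2 (-0.33, adjusted p = 0.0224). Dvl2 overlaps Acadvl on the opposite strand, which had 24199 exonic counts over the 8 libraries against 22506 for Dvl2. Their reads cannot be told apart unless strand was used. Acadvl did not pass (0.10, adjusted p = 0.579). Dvl1 had an exonic change of 0.22 ± 0.09 SE, adjusted p = 0.0839, and 0.22 (adjusted p = 0.00138) with the block. It also passed with DESeq2 (0.23, adjusted p = 0.0438) and without Pilo 3 (0.28, adjusted p = 0.0327). Dvl3 had an exonic change of -0.03 ± 0.10 SE, adjusted p = 0.862. Within this family the levels of Dvl1 ran from 257 to 316 CPM in Mock and from 308 to 370.3 CPM in Pilo libraries.

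Of the 6 destruction complex genes 1 rose. Gsk3b (ENSMUSG00000022812, chr16:38089001-38246084), the kinase that marks beta-catenin for degradation, stood at 81.3, 71.4, 87.9 and 77.5 CPM in Mock and 109.5, 109, 119.6 and 105 CPM in Pilo libraries. The groups were well apart, with an exonic change of 0.48 ± 0.08 SE, adjusted p = 0.000599. In introns it stood at 51.8, 44.5, 31.3 and 47.6 CPM in Mock and 48.8, 44.8, 42 and 50.6 CPM in Pilo libraries, overlapping, with intronic log2 fold change 0.09 ± 0.14 SE, adjusted p = 0.648. Its paralog Gsk3a (ENSMUSG00000057177, chr7:25228258-25237851), with an overlapping kinase role, stood at 88.4, 99.1, 91.1 and 96.3 CPM in Mock and 78.2, 83.6, 89.7 and 78.1 CPM in Pilo libraries, with an exonic change of -0.19 ± 0.07 SE, adjusted p = 0.0699 and -0.19 (adjusted p = 0.0113) with the block. It also passed with a minimum count of 50 (-0.21, adjusted p = 0.0337), in the second table's exonic columns (-0.21, adjusted p = 0.0348) and without Pilo 3 (-0.22, adjusted p = 0.0389). Pilo library 3 lay inside the Mock range and the other 3 below it. Gsk3a fell in introns, from 121, 128, 138 and 134 CPM in Mock to 99.2, 102, 105 and 88.7 CPM in Pilo libraries (intronic log2 fold change -0.40 ± 0.09 SE, adjusted p = 0.00334), with no overlap.

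The scaffolds of the complex did not pass the exonic test without the block. Axin1 (ENSMUSG00000024182, chr17:26138688-26195811) stood at 30.9, 42.5, 35.4 and 36.1 CPM in Mock and 33.7, 37.9, 39.9 and 35.6 CPM in Pilo libraries, with an exonic change of 0.02 ± 0.10 SE, adjusted p = 0.897. Axin2 (ENSMUSG00000000142, chr11:108920349-108950783), the scaffold best known as a direct beta-catenin target, stood at 38.6, 52.4, 44.9 and 51.2 CPM in Mock and 45.7, 58.5, 52.6 and 52.4 CPM in Pilo libraries. Its groups overlapped, with an exonic change of 0.16 ± 0.10 SE, adjusted p = 0.269 and 0.17 (adjusted p = 0.0268) with the block. Apc (ENSMUSG00000005871, chr18:34220924-34322552) stood at 347 to 461 CPM in Mock and 383 to 489 CPM in Pilo libraries, with an exonic change of 0.06 ± 0.10 SE, adjusted p = 0.686. Apc2 had an exonic change of -0.05 ± 0.10 SE, adjusted p = 0.734.

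Ctnnb1 (ENSMUSG00000006932, chr9:120929216-120960507), which codes for beta-catenin, had the smallest adjusted p of the 57 genes in exonic and in intronic reads. Its exonic level was 160.5, 144, 152 and 152 CPM in Mock libraries and 251, 271, 241 and 241 CPM in Pilo libraries. The lowest Pilo library was well above the highest Mock library, with an exonic change of 0.72 ± 0.07 SE, adjusted p = 1.6e-05. In introns it stood at 111, 98.8, 99 and 92.6 CPM in Mock and 227, 218, 261 and 218 CPM in Pilo libraries, with intronic log2 fold change 1.20 ± 0.10 SE, adjusted p = 5.83e-07. The intronic level was thus higher in every Pilo library than in any Mock library, and the exonic change was 0.50 smaller than the intronic change on the log2 scale (interaction -0.50 ± 0.06 SE, adjusted p = 0.000133). Leaving out each library in turn kept the exonic change between 0.69 and 0.76 and the intronic change between 1.14 and 1.25. Ctnnb1 overlaps Ulk4 on the opposite strand, which had 6224 exonic counts over the 8 libraries against 51514 for Ctnnb1 and rose by less (0.32, adjusted p = 0.0295).

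Of the DNA-binding partners Lef1 and Tcf7l2 rose, with calls that, in fits without the block, were lost without single libraries. With the replicate block and all 8 libraries both passed (adjusted p = 0.00109 and 0.00403). Lef1 (ENSMUSG00000027985, chr3:131110471-131224356) stood at 1.43, 1.73, 2.08 and 1.98 CPM in Mock and 2.11, 3.1, 5.67 and 2.55 CPM in Pilo libraries. All 4 Pilo libraries were above the Mock libraries, the lowest by a small margin, and Pilo library 3 was far above the rest, with an exonic change of 0.89 ± 0.28 SE, adjusted p = 0.0287. Without that library the value was 0.53 (adjusted p = 0.0778), and the call was also lost without Mock 1 (0.0767), Mock 2 (0.0670) and with limma-voom (0.0547). Tcf7l2 (ENSMUSG00000024985, chr19:55741820-55933654) stood at 4.94, 5.83, 5.51 and 6.203 CPM in Mock and 5.83, 7.02, 11.3 and 8.39 CPM in Pilo libraries. Pilo library 1 lay inside the Mock range and Pilo library 3 was again the highest, with an exonic change of 0.53 ± 0.18 SE, adjusted p = 0.0398, and 0.35 (adjusted p = 0.108) without Pilo 3. The Tcf7l2 call was also lost without Mock 1 (0.0970), Mock 2 (0.0692), Mock 3 (0.0722), Mock 4 (0.0531) or Pilo 4 (0.0898), and with limma-voom (0.0643), the stricter filter (0.0511) and the second table's exonic columns (0.0550).

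The marker lists of other cells are given beside these 2 factors, which were highest in the library with the highest endothelial sum. Of the other genes that rose in exons, Lgr5 (11.4 CPM), Rspo1 (21.97 CPM) and Gsk3b (119.6 CPM) were also highest in that library, Pilo 3. Of the endothelial and mural list 0 of 7 genes passed (median 0.79), with summed levels of 16.7 to 35.3 CPM in Mock and 19.8 to 85.8 CPM in Pilo libraries. Of the thalamus list 1 of 4 passed, Rora at 0.58, with means of 43.95 CPM in Mock and 65.6 CPM in Pilo libraries. Prkcd (0.09, adjusted p = 0.748), Gbx2 (0.04, adjusted p = 0.943) and Plekhg1 (0.10, adjusted p = 0.654) did not pass. The sums of this list were 78.6 to 86.7 CPM in Mock and 92.8 to 122 CPM in Pilo libraries. The excitatory marker Slc17a6, prominent in thalamus, rose by 0.69. Oligodendrocyte sums ran from 310.5 to 420.3 CPM in Mock and from 396 to 707 CPM in Pilo libraries, with 1 of 6 genes higher. The part of such cells in the Lef1, Tcf7l2, Lgr5, Rspo1 and Gsk3b values was not tested.

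Tcf7 (ENSMUSG00000000782, chr11:52252371-52283014), another factor of the family, stood at 2.02, 2.66, 3.73 and 3.72 CPM in Mock and 2.31, 1.63, 3.12 and 1.72 CPM in Pilo libraries, with overlapping groups and an exonic change of -0.47 ± 0.25 SE, adjusted p = 0.181. It fell in introns, from 4.79, 5.14, 4.503 and 7.44 CPM in Mock to 3.08, 3.68, 2.45 and 3.002 CPM in Pilo libraries (intronic log2 fold change -0.84 ± 0.23 SE, adjusted p = 0.00739). Tcf7l1 had an exonic change of 0.57 ± 0.39 SE, adjusted p = 0.294.

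**Figure D3:**
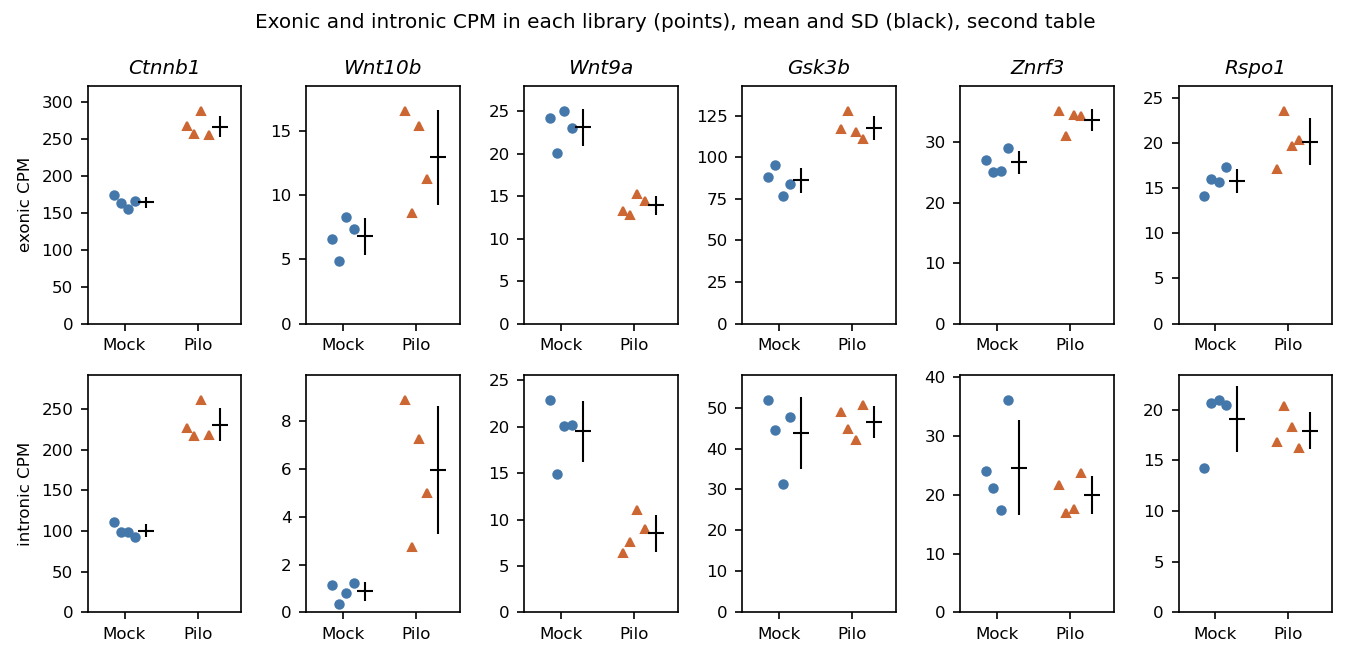
CPM of 6 genes in the second table, exonic above and intronic below, with 1 point per Mock (circles) or Pilo (triangles) library and the mean and SD beside them. Ctnnb1, Wnt10b and Wnt9a separate the groups in both rows, while Gsk3b and Znrf3 separate them in exons and overlap in introns. The groups of Rspo1 overlap in both rows.

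Intronic reads, which in nuclear RNA come mostly from transcripts not yet spliced, could be tested for 42 of the 57 genes. Of the second table's other 9, Porcn and Sfrp5 were listed with 0 intronic counts in every library, and Wnt7a, Wnt9b, Wnt11, Fzd4, Fzd5, Sfrp1 and Sfrp2 had too few. Of the 42 genes 12 were higher (Wnt2, Wnt4, Wnt5b, Wnt6, Wnt10a, Wnt10b, Fzd6, Dkkl1, Sfrp4, Lgr5, Dvl1 and Ctnnb1) and 5 lower (Wnt9a, Wls, Rspo3, Gsk3a and Tcf7), against 41.4% of 13318 genes in either direction, 19.6% higher and 21.9% lower. With the block 12 were higher and 8 lower, with Apc2, Dkk3 and Wnt7b added to the lower genes, at a background of 56.9% in either direction, 27.7% higher and 29.2% lower. The medians were 0.06 for the 42 genes and -0.00 for all genes. Wnt10b had the largest intronic change, from 1.14, 0.350, 0.799 and 1.25 CPM in Mock to 8.88, 2.74, 7.28 and 5.004 CPM in Pilo libraries, or 51 against 308 summed counts. Every Pilo library was above every Mock library, with intronic log2 fold change 2.79 ± 0.40 SE, adjusted p = 7.04e-05. Wnt2, which did not pass in exons (0.38, adjusted p = 0.234), rose in introns from 4.43, 6.07, 4.503 and 4.03 CPM in Mock to 7.09, 9.16, 9.73 and 6.34 CPM in Pilo libraries, with no overlap and intronic log2 fold change 0.76 ± 0.20 SE, adjusted p = 0.00679. In all 6 of the 11 ligands tested were higher and 1 was lower in introns. Wnt5b overlaps Fbxl14 on the opposite strand, with 4114 exonic counts against 132 for Wnt5b, so the reads behind its intronic value (0.57) cannot be told apart from those of Fbxl14 unless strand was used.

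The calls of 9 of these 17 genes in introns were lost without single libraries of the second table. They were Fzd6 (adjusted p = 0.111 without Mock 1, 0.0605 without Mock 2, 0.119 without Mock 3, 0.0886 without Pilo 1, 0.0909 without Pilo 2 and 0.0818 without Pilo 4), Lgr5 (0.0955 without Mock 1, 0.0573 without Mock 2, 0.0804 without Mock 4 and 0.180 without Pilo 2) and Wnt4 (0.0975 without Mock 1, 0.0656 without Mock 2, 0.0552 without Mock 4, 0.0501 without Pilo 2 and 0.121 without Pilo 3). Wnt5b was lost without Mock 2 (0.0749), Mock 4 (0.0684), Pilo 1 (0.0558) or Pilo 3 (0.0725), and Dvl1 without Mock 2 (0.0540), Pilo 3 (0.0519) or Pilo 4 (0.0556). Wnt6 was lost without Mock 1 (0.0512) or Pilo 2 (0.0585), Sfrp4 without Mock 4 (0.0543) or Pilo 3 (0.0511), Wnt10a without Pilo 4 (0.0553) and Rspo3 without Mock 1 (0.0522). Ctnnb1, Wnt10b, Wnt9a, Dkkl1, Gsk3a, Wls, Wnt2 and Tcf7 passed in introns without any 1 library, with adjusted p up to 0.0333.

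In the fit of both regions together, 42 of the 57 genes were tested, and the exonic change lay above the intronic change for 7 and below it for 5, against 26.2% of 13047 genes in either direction, 13.5% above and 12.8% below. Above were Znrf3 (0.61), Rspo3 (0.49), Wnt9a (0.47), Wls (0.44), Rspo1 (0.43), Gsk3b (0.35) and Gsk3a (0.18). Below were Wnt10b (-1.83, adjusted p = 0.000261), Sfrp4 (-0.59), Ctnnb1 (-0.50), Dvl2 (-0.28) and Dvl1 (-0.25). Wnt10b and Ctnnb1 thus had larger rises in introns than in exons, whereas Gsk3b, Znrf3 and Rspo1 rose in exons and did not pass in introns. For Rspo1 the intronic level was 14.2, 20.7, 20.9 and 20.4 CPM in Mock and 16.8, 20.4, 18.3 and 16.3 CPM in Pilo libraries. The Dvl2 introns stood at 45.9, 40.9, 49.3 and 49.8 CPM in Mock and 38.2, 46.8, 53.1 and 49.04 CPM in Pilo libraries, overlapping throughout. The Gsk3a call was lost without any 1 of Mock 1 to 4 and Pilo 2, 3 and 4 (adjusted p = 0.0565 to 0.188), and the Gsk3b call without Mock 1, 2 or 4 or Pilo 1, 2 or 3 (0.0528 to 0.156). Both were also lost with edgeR's RLE (relative log expression) scaling in place of TMM (0.0579 and 0.0516). The Dvl1 call was lost without Mock 2 (0.0791), Pilo 3 (0.0892) or Pilo 4 (0.0915), and the Sfrp4 call without Mock 1 (0.0528) or Pilo 3 (0.0531).

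**Figure D4:**
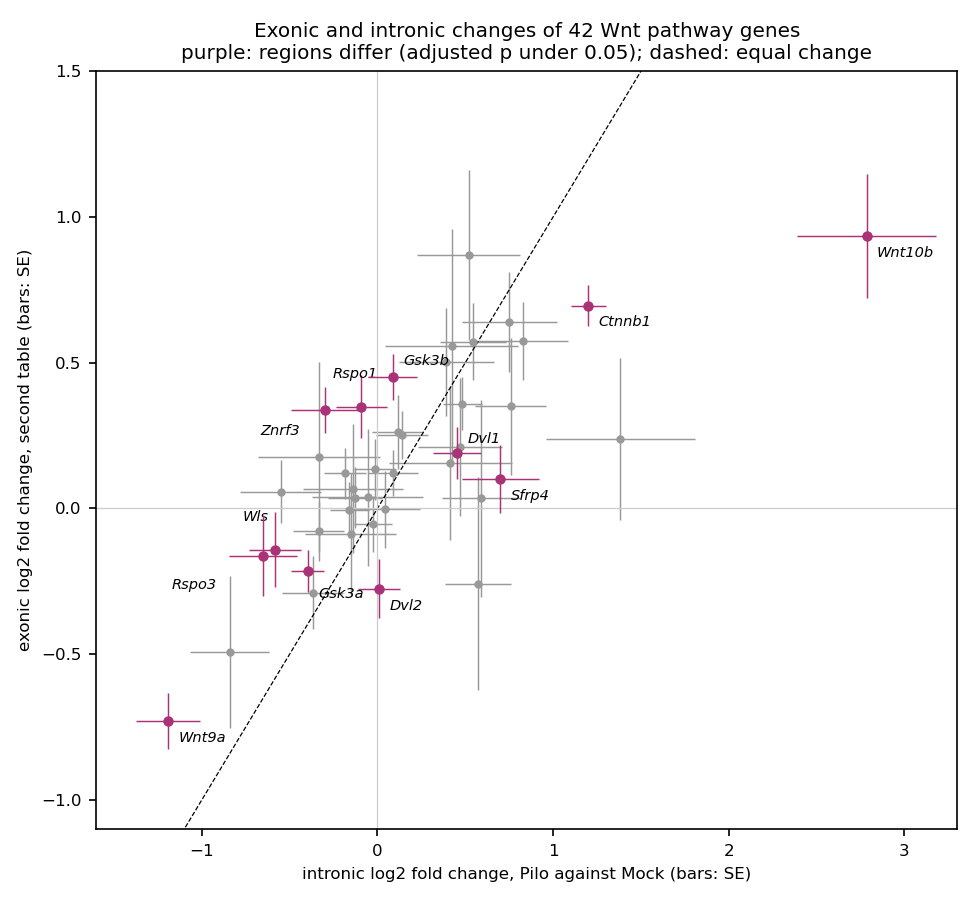
Exonic log2 fold change (second table) against intronic log2 fold change for 42 genes, with bars of 1 SE; purple points are those whose regions differ and the dashed line marks equal change. Wnt10b and Ctnnb1 lie below the line on the right, and Znrf3, Rspo1 and Gsk3b lie above it.

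When exonic and intronic counts were added, 9 of 51 genes were higher and 3 lower, against 37.2% of 14816 genes in either direction, 19.1% higher and 18.2% lower. Ctnnb1 (0.86), Wnt10b (1.20), Gsk3b (0.45) and Wnt9a (-0.80) passed in this measure as in exons. Rspo1 (0.23, adjusted p = 0.120), Znrf3 (0.21, adjusted p = 0.148), Lgr4 (0.25, adjusted p = 0.0571), Lef1 (0.65, adjusted p = 0.0785) and Tcf7l2 (0.51, adjusted p = 0.0576) did not pass. With the block 19 were higher and 7 lower, at a background of 53.9% in either direction, 28.9% higher and 25.1% lower, and these 5 genes were among the higher.

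Some levels followed the replicate number in both groups. Wnt7a, Wnt7b, Fzd2, Fzd4, Fzd7, Lrp5, Sfrp5 and Rspo1 had exonic levels in libraries 3 and 4 above those in libraries 1 and 2 in both groups, which is 14.04% of the 57 genes against 6.04% of all genes tested. Fzd2 stood at 3.25, 3.36, 5.49 and 8.01 CPM in Mock and 2.51, 2.25, 6.31 and 8.12 CPM in Pilo libraries. Numbers 3 and 4 were thus high and numbers 1 and 2 low in each group, and the groups overlapped. Astrocyte markers split by number likewise, with 174 and 203 CPM in Mock 2 and 1 and 298.5 and 318 CPM in Mock 3 and 4, and with 181 and 222 CPM in Pilo 2 and 1 and 375 and 412 CPM in Pilo 4 and 3. Their part in these values was not tested.

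**Figure D5:**
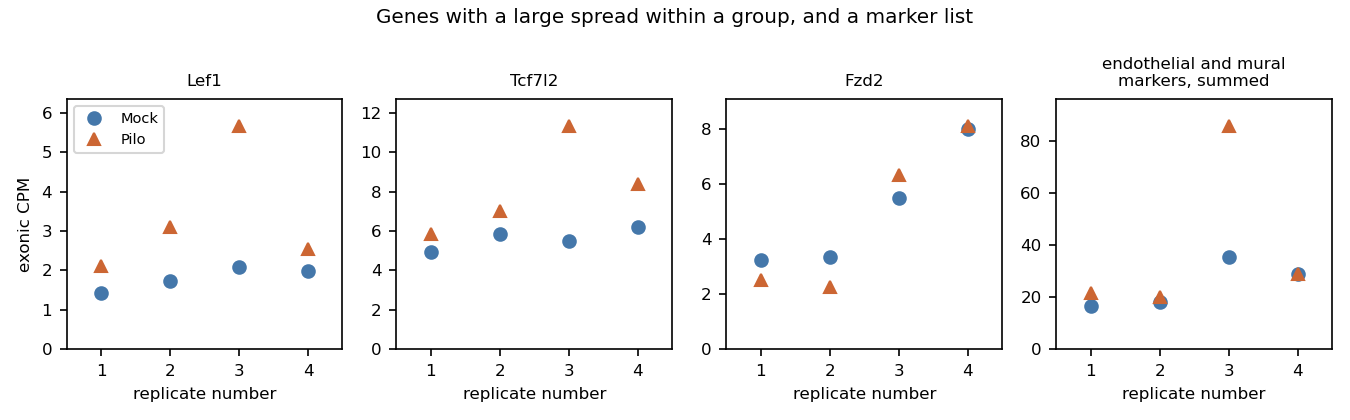
Exonic CPM of Lef1, Tcf7l2 and Fzd2 and of the 7 summed endothelial and mural markers by replicate number, for Mock (circles) and Pilo (triangles) libraries. Pilo library 3 is highest for Lef1, Tcf7l2 and the markers (85.8 CPM), and Fzd2 is higher in numbers 3 and 4 than in 1 and 2 in both groups.

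A list of 81 other pathway genes gave 77 that could be tested, of which 22 rose and 4 fell, with a median log2 fold change of 0.16, where 15.6% of all genes were higher and 16.2% lower. Of the 15 genes listed under the destruction complex and beta-catenin turnover 8 rose and none fell. They included Fbxw11, a subunit of the ligase that degrades beta-catenin (0.60, adjusted p = 5.2e-05). The 8 also included the casein kinases Csnk1g1 (0.62, adjusted p = 0.000205), Csnk1g2 (0.73, adjusted p = 0.000206) and Csnk1g3 (0.50, adjusted p = 0.00166). These were listed by family name, which shows no part in beta-catenin turnover. Csnk1a1 (0.18, adjusted p = 0.117), Csnk1d (0.21, adjusted p = 0.085) and Csnk1e (-0.09, adjusted p = 0.4475) did not pass. With the replicate block Csnk1a1 and Csnk1d passed (adjusted p = 0.00999 and 0.0114). Of the 15 tested genes often cited as beta-catenin targets 6 rose and none fell in exons. They were the cell cycle gene Ccnd1 (0.67, adjusted p = 0.000152), the AP-1 gene Fosl1 (2.11, adjusted p = 0.00121), also known as activity-induced, Jun (0.81), Myc (0.56), Ppard (0.47) and Tnfrsf19 (0.24). Nkd1 (0.31, adjusted p = 0.248) and Notum (0.32, adjusted p = 0.489) were among those that did not pass. The part of beta-catenin in the values of this list was not tested. In introns Ccnd1 (0.99, adjusted p = 0.00159) and Fosl1 (3.00, adjusted p = 1.18e-05) rose. Ccnd2 (-0.53, adjusted p = 0.0155) and Bambi (-0.74, adjusted p = 0.0183) fell there. Of 10 planar polarity genes 3 rose, including Daam1 (0.48, adjusted p = 0.00128) and Prickle2 (0.45, adjusted p = 0.00130), and Vangl2 fell (-0.57). The secreted and membrane modulators had 0 higher and 1 lower gene of 15, Tmem67 (-0.45, adjusted p = 0.000652). Dact2, an inhibitor that binds Dishevelled, fell by most among the genes of this list that passed (-0.94, adjusted p = 2.19e-05). It went from 40.8, 44.2, 34.1 and 38.9 CPM in Mock to 21.5, 20.98, 17.9 and 22.3 CPM in Pilo libraries, with no overlap. Its relative Dact1 rose (0.68, adjusted p = 0.00275) and Dact3 did not pass (0.16, adjusted p = 0.231). The corepressor Tle1 fell by less (-0.33), while its relatives Tle3 (0.33, adjusted p = 0.00742) and Tle4 (0.40, adjusted p = 0.00343) rose. Tle2 did not pass (0.11, adjusted p = 0.614).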

How the data were processed

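The authors deposited raw read counts per gene: a table of exonic counts and a table with exonic and intronic counts side by side. Per the submitters' processing notes, the tools were edgeR, HTSeq 0.11.2, STAR 2.7.1a and Trimmomatic 0.39, run against mm10, and R 4.1.1. The annotation, the use of strand and the rule for intronic reads were not given in the sources read. Of the 57 genes, 29 overlap another annotated gene, and reads of such pairs, and of antisense partners, may be shared. Libraries were directional and from polyadenylated RNA, per the labels' protocols.

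Counts were fitted over all genes with edgeR 4.0.16 in R 4.3.3 (robust quasi-likelihood F-test, TMM scaling, a minimum count of 10 in filterByExpr, Benjamini-Hochberg threshold 0.05, n = 4 libraries per group); CPM used TMM-scaled library sizes. The interaction of region and treatment had library as covariate. Gene coordinates are from GENCODE vM21 on GRCm38; GENCODE gave exon lengths. Alternatives were DESeq2 1.42.0, limma 3.58.1 (voom), edgeR's RLE scaling, other filters (no filter, and a minimum count of 50), the second table's exonic columns, the replicate block, and each library left out. Scripts were tested on simulated data.

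The members and lists were chosen with earlier results of these data known. Genes were named with all 8 libraries if they passed the exonic test, or were among the 8 smallest p in the intronic or region test; 12 core genes were named in any case, and others by range or count. Of the other pathway genes the 10 of smallest p were named. Vangl2, the Tle genes, Dact1 and Dact3 were chosen after their values were seen. So were the further casein kinases and beta-catenin targets named, and the further genes of short counts. Same-numbered Mock and Pilo libraries deviated together (r = 0.372, 0.380, 0.401 and 0.377), so the numbers pair the libraries, though the labels do not say what a number marks. Numbers 2 and 3 were exchanged between the tables (best-match r 0.995 to 0.998 over 12317 genes). Replicates of a group differed by 10.2 to 34.2 chi-square units per degree of freedom, above sampling noise, and all were used as separate samples.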

Additional observations from a re-analysis of the deposited data

Results flagged for a closer look

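Within a group of 4 libraries, 9 of 114 sets of exonic levels had 1 library whose gap to the nearest other exceeded Dixon's critical share of the group's range, which chance alone gives in about 1 set in 20. Wnt11 was highest in library 3 of both groups, at 0.613 CPM in Mock (the others from 0.365 CPM) and 0.670 CPM in Pilo (the others from 0.200 CPM). Lgr6 stood at 9.18 CPM and Znrf3 at 29.1 CPM in Pilo library 3, the highest and the lowest of their groups. Wnt4 stood highest in Pilo library 2 at 34.3 CPM. In Mock, Fzd10 was highest in library 1 at 1.36 CPM, Fzd7 in library 4 at 2.82 CPM and Dkkl1 in library 2 at 20.8 CPM, while Sfrp1 was lowest in library 2 at 2.11 CPM.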

How the results depend on the processing

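With the replicate block, 4572 of all genes and 21 of the 57 Wnt pathway genes were higher and 3 lower in exons, 8 lower in introns, and 4281 of all genes, 19 Wnt pathway genes higher and 7 lower for the gene body. The region test had library as covariate and no separate block. Exonic lower genes numbered 2 with no filter, with a minimum count of 50 and in the second table's exonic columns. Genes whose exonic change lay below the intronic one numbered 3 with a minimum count of 50. That minimum left 32 of the genes in the region test and 33 in the intronic test. Wnt10b and Sfrp4 in both tests, and Wnt6 in introns, had too few intronic reads for it and so had no call.

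Leaving out 1 library gave 10 to 14 higher and 1 to 2 lower Wnt pathway genes in exons (12 and 2 without Pilo 3), 7 to 12 and 4 to 7 in introns, 8 to 10 and 2 to 4 for the gene body, and 4 to 7 above and 3 to 6 below in the region test. The lowest introns count, 7 higher, was without Mock 2, and the 4 above was without Pilo 2. Over all genes these fits gave 2487 to 3113 higher and 2356 to 3166 lower in exons. Of 389 exonic values of named genes under the alternatives, 363 kept their side of the threshold, 17 lost and 9 gained a call, and none changed direction among called values. The cause of these changes was not tested. Ligands and Frizzled genes below 1 CPM had too few reads for a small change to be detectable.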
